A study of Mus musculus with 10 samples.

Results

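The 10 genes of heterotrimeric G protein signalling followed here in sorted mouse platelets were the alpha subunit genes Gnas, Gnaq, Gnai2, Gna13 and Gnaz, the beta subunit gene Gnb1, the gamma subunit genes Gng11 and Gng5, and the regulators of G protein signalling (RGS) Rgs10 and Rgs18. They were taken by symbol from the 23420 genes of the count table, and all 10 symbols had a row. Platelets are the anucleate cell fragments that megakaryocytes release into the blood. Those of adult mice were sorted by flow cytometry from peripheral blood into a fraction with the red fluorescent protein Tomato and a fraction without it, and 5 libraries of each were sequenced from polyadenylated RNA after Smart-seq+ amplification. The labels give no strain, sex or genotype and do not name the gene that drives Tomato. Nothing says that the 5 libraries of a fraction came from separate animals, so every p measures the spread between libraries, which may be technical.

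Agonists such as ADP, thrombin and thromboxane act on platelets through receptors with a G protein on their inner side. That protein is made of an alpha subunit, which binds GTP when the receptor is active, and a joined beta and gamma pair that also signals. The Gq class opens calcium stores through phospholipase C, G13 acts on cell shape, Gi and Gz lower cyclic AMP, and Gs, the product of Gnas, raises cyclic AMP and so holds platelets at rest. RGS proteins speed up the hydrolysis of GTP on alpha subunits and so end the signal.

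Libraries held 5411417 to 16179973 counts and between 807 and 2450 genes with at least 1 count. The 3 libraries Tomato- replicates 1, 2 and 5 had under 1000 such genes. All 11 platelet marker genes had counts in every library (Itga2b, Pf4 and Gp9 among them), with 43731 to 60842 CPM in sum, where CPM is counts per 1000000 counts of the library. Of 7 neutrophil marker rows 1 had any count (S100a9, with a sum of 0 to 239.8 CPM in Tomato+ and 0 in Tomato-), of 6 monocyte rows 2 (Ly6c2 and Ms4a6c, 0 to 0.0872 and 0 to 45.2 CPM), of 5 B cell rows 1 (Cd37, 0 to 114.8 and 0 CPM) and of 6 T and NK cell rows 1 (Nkg7, 0 and 0 to 20.7 CPM). Defining markers such as Mpo, Csf1r, Cd79a and Cd3e were at 0 counts in all libraries. Red cell markers summed to 1.38 to 337.6 CPM in Tomato+ and 47.7 to 3440 CPM in Tomato-, and endothelial markers to 4.39 to 294.3 and 57.8 to 270.2 CPM. Of these lists, Hba-a1, Hba-a2, Hbb-b1 and Slc4a1 (red cells) and Cdh5, Tek and Emcn (endothelium) were at 0 counts in all libraries. What these cells add to the levels below was not tested.

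The 10 genes together held 2.89 ± 0.268% of a Tomato+ library's counts and 2.77 ± 0.325% of a Tomato- library's (mean ± SD, n = 5 each). Gng11, Gnas, Rgs18, Rgs10 and Gnai2 had mean levels above 1000 CPM, and Gnaz, Gnb1 and Gng5 followed at 220.8 to 308.2 CPM on average. Gnaq and Gna13 had counts in 3 libraries each. Of the 10 genes, 7 had a count in every library and 6 had at least 10 counts in every library. Over the whole table, 264 of the 4692 genes with any count were found in every library and 225 had 10 counts in each. The 10 genes were picked with earlier results of these data known, so this contrast is given as a description.

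**Figure D1:**
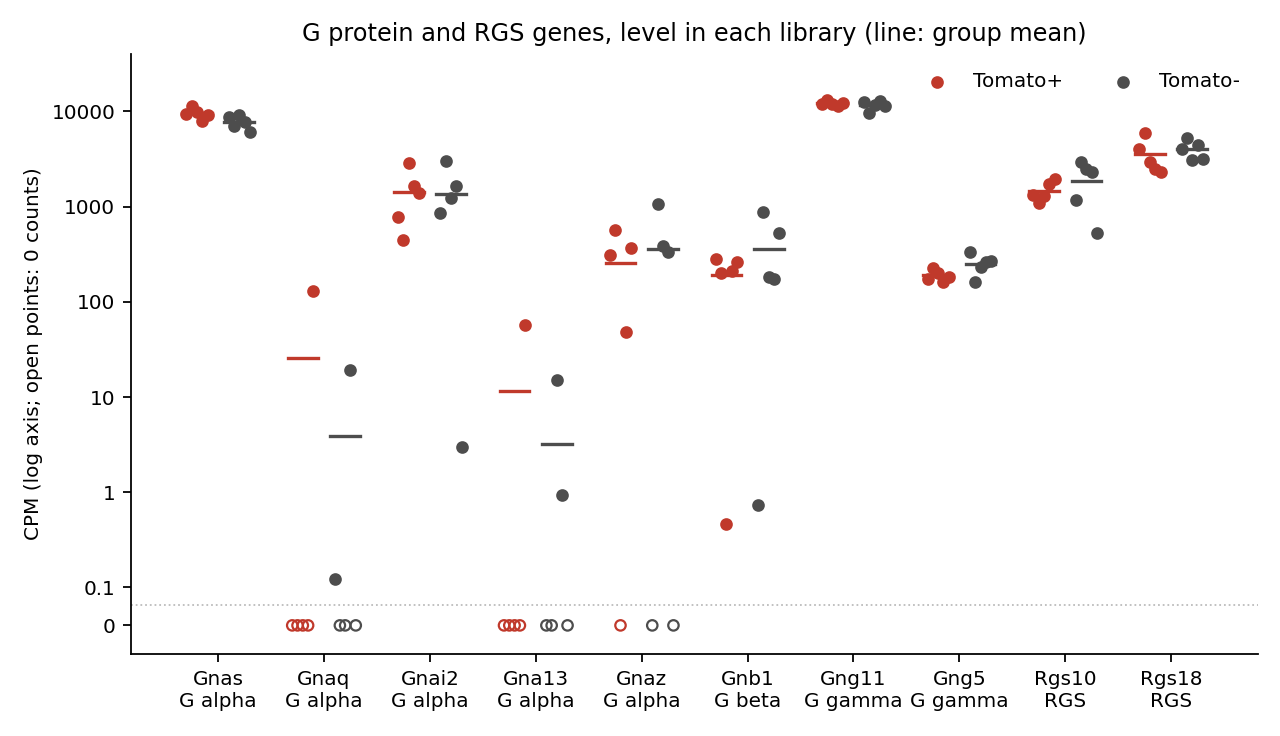
Level of each gene in each of the 10 libraries, in CPM on a log axis. Each point is 1 library (Tomato+ red, Tomato- grey), lines are group means, and open points below the dotted line are libraries with 0 counts. Gng11 and Gnas vary least, while Gnaq and Gna13 are at 0 in 7 libraries each and the 2 fractions overlap for every gene.

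The alpha subunit gene with the highest CPM was Gnas (chromosome 2, 174284320 to 174346744, plus strand, GRCm38). Its 5 Tomato+ libraries, replicates 1 to 5, had 9436, 11471, 9824, 7923 and 9278 CPM. The 5 Tomato- libraries had 8690, 7065, 9249.6, 7823 and 6151 CPM. The groups overlapped, although the 3 lowest libraries of all were Tomato-. Means were 9586 ± 1274 CPM for Tomato+ and 7796 ± 1240 CPM for Tomato- (SD, n = 5 each). The log2 fold change was 0.50 (SE 0.21, 95% interval 0.05 to 0.96), with an unadjusted p of 0.0330 and an adjusted p of 0.9996 in edgeR, so the gene did not pass. Scaled by total counts the estimate was 0.30, and in a fit of the 225 genes that reach 10 counts throughout it was 0.38 (SE 0.14, edgeR adjusted p = 0.618). Counts of Gnas pool all products of an imprinted locus with several promoters, and the antisense gene Nespas that overlaps it had 0 counts.

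Gnai2 encodes the Gi subunit through which the ADP receptor P2Y12 lowers cyclic AMP (chromosome 9, 107614125 to 107635367, minus strand). Tomato+ libraries had 785.8, 443.4, 2843, 1661 and 1392 CPM, and Tomato- libraries 856.6, 2982, 1244, 1651 and 2.96 CPM. The last value rests on 16 counts in Tomato- replicate 5, the library with the fewest detected genes (807), while the other 9 libraries had 6072 to 26878 counts. The lowest and highest Tomato+ libraries differed 6.41-fold and the Tomato- libraries 1009-fold. The log2 fold change was 0.35 (SE 0.93, edgeR adjusted p = 0.9996), and without Tomato- replicate 5 it was 0.03.

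Gnaz encodes the alpha subunit of Gz, a relative of Gi that pertussis toxin does not modify and that is prominent in platelets and neurons (chromosome 10, 74967177 to 75016907, plus strand). It had 309.6, 569.7, 0, 48.2 and 364.1 CPM in Tomato+ and 0, 1071, 382.5, 336.7 and 0 CPM in Tomato-. Each group thus held libraries with many counts (780 to 8564) and libraries with none, and the 3 at 0 (Tomato+ replicate 3, Tomato- replicates 1 and 5) were 3 of the 4 libraries with the fewest detected genes. A count of 0 would allow up to 0.461, 0.368 and 0.554 CPM there, the level of 3 counts, which covers counting error only. The log2 fold change was -0.19 with an SE of 2.28 and a 95% interval of -5.02 to 4.64, so these libraries do not fix its direction.

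Gnaq and Gna13, whose products couple to the thrombin and thromboxane receptors, were found in few libraries. Gnaq (chromosome 19, 16132831 to 16387463, plus strand) had 1484 counts in Tomato+ replicate 5 (129.4 CPM), 206 in Tomato- replicate 4 (19.4 CPM) and 1 in Tomato- replicate 1. It had 0 counts in the other 7 libraries. Gna13 (chromosome 11, 109362831 to 109401369, plus strand) had 660 counts in Tomato+ replicate 5 (57.5 CPM), 158 in Tomato- replicate 3 (14.95 CPM) and 10 in Tomato- replicate 4 (0.944 CPM), and 0 elsewhere. Tomato+ replicate 5 and Tomato- replicate 4 were the 2 libraries with the most detected genes, 2450 and 2430, and the 2 with counts for all 10 genes. Markers of other cells were also found in the 3 libraries that held most Gnaq and Gna13 counts. The red cell globin gene Beta-s was highest there, at 3257 CPM in Tomato- replicate 4, 696.1 in Tomato- replicate 3 and 337.6 in Tomato+ replicate 5, against 1.38 to 268.5 CPM in the other 7 libraries. Alas2 of the red cell list had 1940 counts in Tomato- replicate 4 alone. Hba-a1, Hba-a2, Hbb-b1 and Slc4a1 of that list, and the endothelial markers Cdh5, Tek and Emcn, had 0 counts in all libraries. Of the endothelial list, Plvap had 1277, 1267 and 757 counts in these libraries, in the same order, Tie1 had 904, 935 and 682, and Kdr had 682 in Tomato- replicate 4, although Plvap and Tie1 were higher in CPM in other libraries. Of the leukocyte lists, Ms4a6c and Nkg7 had 479 and 219 counts in Tomato- replicate 4 and Cd37 had 438 in Tomato+ replicate 5. However, Cd37 was higher in Tomato+ replicate 4 (1857 counts), and S100a9 had 1560 counts in Tomato+ replicate 3 alone. Both of these libraries had 0 counts for Gnaq and Gna13. Whether other cells added the Gnaq and Gna13 counts was not tested. Neither gene passed the expression filter, so neither was tested. By library, a count of 0 would allow up to 0.185 to 0.554 CPM, the level of 3 counts, which covers counting error only. Since Gnai2 and Gnb1 fell near 0 in single libraries, a 0 does not bound the level in the platelets.

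Gnb1 was the beta subunit gene with counts in every library (chromosome 4, 155491361 to 155559269, plus strand). Tomato+ libraries had 279.5, 203.3, 0.461, 209.5 and 264.2 CPM, and Tomato- libraries 0.735, 887.3, 182.1, 173.8 and 532.8 CPM. The 2 values under 1 CPM are 3 counts in Tomato+ replicate 3 and 6 counts in Tomato- replicate 1. In the other 8 libraries the gene lay between 173.8 and 887.3 CPM, and 2 of the 3 highest were Tomato-. The log2 fold change was -0.53 (SE 1.85, edgeR adjusted p = 0.9996), and it was 0.06 without the 3 libraries under 1000 detected genes. The annotation holds 2 pseudogenes named after Gnb1 and 1 named after Gng5, and the sources used here do not say how reads with several alignments were counted, so counts of both genes are uncertain to that extent.

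Gng11, a gamma subunit gene of the farnesylated type, was the highest of the 10 genes (chromosome 6, 4003904 to 4008445, plus strand). It had 11925, 13171, 11962, 11538 and 12347 CPM in Tomato+ and 12496, 9675, 11696, 12969.5 and 11493 CPM in Tomato-. Its highest library was 1.36 times its lowest, and the fractions overlapped, with Tomato- replicates 2 and 5 below every Tomato+ library. Means were 12188 ± 620 CPM and 11666 ± 1263 CPM (SD, n = 5 each), with a log2 fold change of 0.27 (SE 0.19, 95% interval -0.12 to 0.67, edgeR adjusted p = 0.9996). Scaled by total counts the estimate was 0.06.

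By mean CPM Gng11 ranked 9 among all genes, between Ppbp and Ftl1. Its coefficient of variation over the 10 libraries, the SD as a percentage of the mean, was 8.20%, the lowest of the 225 genes with 10 counts in every library. Ctla2a (10.02%) and Actb (12.5%) came next, and the median of the 225 genes was 43.3%. Genes of high level varied less than that median. Among the 20 of highest mean CPM, the others ran from 10.02% to 36.3% (Rn45s). Within Tomato+ alone Gng11 again ranked 1 (5.08%), and within Tomato- it ranked 3 (10.8%). This rank was looked up after the values were seen and carries no test.

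**Figure D2:**
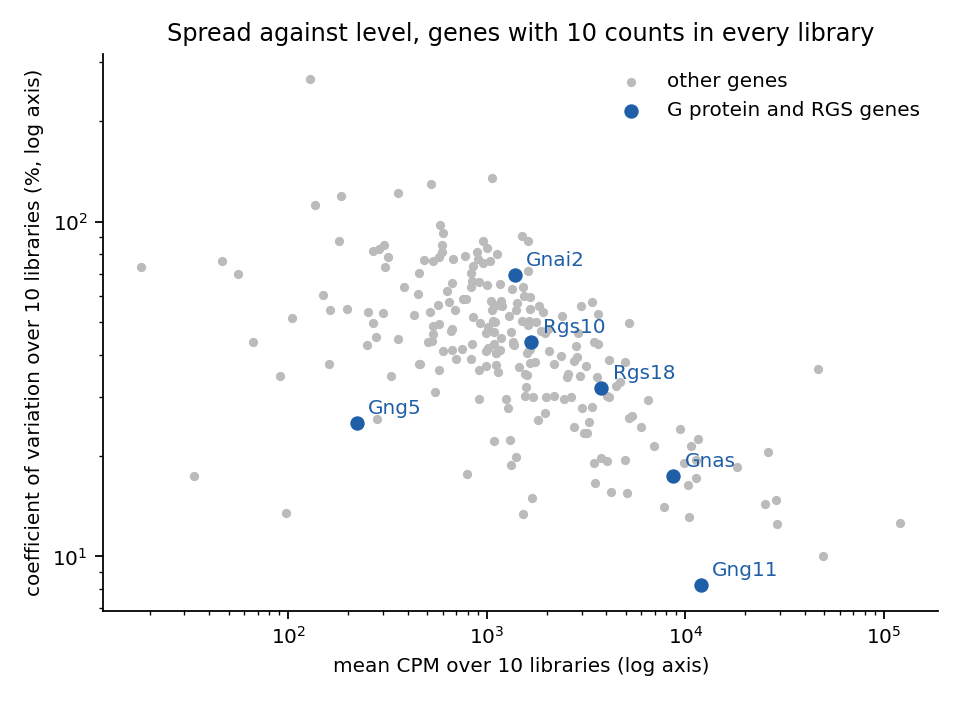
Coefficient of variation over 10 libraries against mean CPM, both on log axes, for the 225 genes with at least 10 counts in every library. Each point is 1 gene, with the 6 G protein and RGS genes in blue. Gng11 lies at the bottom with 8.20%, and Gng5 lies below most genes of its level with 25.1%.

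Gng5, a gamma subunit gene of the geranylgeranylated type, was far lower and varied more (chromosome 3, 146499807 to 146505572, plus strand). Tomato+ libraries had 175.2, 228.5, 200.6, 161.6 and 180.5 CPM, and Tomato- libraries 332.3, 163.4, 234.6, 259.2 and 271.8 CPM. In all, 4 of the 5 Tomato- libraries lay above every Tomato+ library, and the fifth, replicate 2, lay near the bottom of the Tomato+ range. Means were 189.3 ± 26.01 CPM and 252.3 ± 61.4 CPM (SD, n = 5 each). Its coefficient of variation of 25.1% ranked 4 among the 89 genes under 1000 CPM that had 10 counts in every library. The edgeR log2 fold change was -0.20 with an SE of 1.55, in a fit that draws each gene's spread toward the trend of all tested genes. Fitted with the 225 genes that reach 10 counts throughout, the log2 fold change was -0.34 (SE 0.37, 95% interval -1.15 to 0.46, edgeR adjusted p = 0.901).

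Set against gene length, Gng11 stood far above Gng5 in the same platelets. On the scale of CPM per kb of annotated exon, the ratio of Gng11 to Gng5 was 204.8, 173.4, 179.4, 214.8 and 205.8 in Tomato+ and 113.1, 178.2, 150.02, 150.5 and 127.2 in Tomato-. Tomato- replicate 2, with the lowest Gng11 and Gng5 values of its group, was the 1 Tomato- library inside the Tomato+ range. With coding transcript length the ratio was 37.2 to 46.1 in Tomato+ and 24.3 to 38.2 in Tomato-, a comparison added after the data were seen. Gng11 made up 99.1 to 99.5% of the gamma subunit CPM per kb in each library, and 96.0 to 97.8% with coding transcript length in place of all exons.

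Rgs18 encodes an RGS protein that acts on Gi and Gq alpha subunits and is typical of megakaryocytes and platelets (chromosome 1, 144752683 to 144775435, minus strand). It had 4019.5, 5994, 2932, 2488 and 2306 CPM in Tomato+ and 4057, 5253, 3102, 4437 and 3149 CPM in Tomato-. Both the highest and the lowest library were Tomato+, and the Tomato- libraries lay between them. The log2 fold change was 0.05 (SE 0.30, 95% interval -0.59 to 0.69, edgeR adjusted p = 0.9996), and with scaling by total counts it was -0.18.

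Rgs10 encodes a small RGS protein that acts on alpha subunits of the Gi class (chromosome 7, 128373621 to 128418758, minus strand). Tomato+ libraries had 1317, 1084, 1289, 1747 and 1933 CPM. Tomato- libraries had 1178, 2931, 2468, 2289 and 533.7 CPM. The 3 highest and the lowest libraries were Tomato-, so this group was the more spread of the 2 (SD 990.5 against 352.2 CPM, n = 5 each). The log2 fold change was -0.14 (SE 0.49, 95% interval -1.17 to 0.89, edgeR adjusted p = 0.9996), and it was -0.64 without the 3 libraries under 1000 detected genes.

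In order of CPM per kb of exon, the 10 genes ran Gng11 (12978 ± 1064, mean ± SD over 10 libraries), Rgs18 (1858 ± 593), Rgs10 (980.2 ± 428.3), Gnas (777.0 ± 135.4), Gnai2 (366.8 ± 253.8), Gnaz (85.3 ± 92.9), Gng5 (79.8 ± 20.1), Gnb1 (64.1 ± 61.5), Gnaq (2.41 ± 6.58) and Gna13 (1.14 ± 2.84). Gng11 lay above Rgs18 in all 10 libraries with no overlap of their ranges. Every other pair of neighbours overlapped in range. Rgs10 exceeded Gnas in 5 of 10 libraries and Gnaz exceeded Gng5 in 5 of 10, so neither order is fixed by these data. The exon length used matters for genes with many transcripts. Gnas has 11.2 kb of annotated exon but a median coding transcript of 2.99 kb, and on the latter length, an alternative added after the data were seen, Gnas took place 2 and Rgs18 place 4. Gng5 took place 6 and Gnaz place 7, with Gnaz above Gng5 in 1 of 10 libraries on that length. Gng11 kept place 1 and Gnb1, Gnaq and Gna13 kept places 8, 9 and 10.

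Among the 16 alpha subunit genes of the mouse listed here, 9 had any count. Gnas took 36.8 to 99.8% of the alpha subunit CPM per kb in a library (median 63.2%), and 54.3 to 99.9% with coding transcript length. Gnai2 took 0.142 to 46.1% and exceeded Gnas in 1 library, Tomato- replicate 2, and in none with coding transcript length. Gnaz reached 17.3% in that library. Gnai3, another Gi gene, had 1155 counts in Tomato+ replicate 5 alone (101 CPM), and Gna12, the relative of Gna13, had 484 counts in Tomato- replicate 4 alone (45.7 CPM). Gna11, the other widespread Gq gene, had 1 to 6 counts in 7 libraries and Gnal had 77 counts in 1. The remaining 7 alpha genes had 0 counts in all libraries.

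**Figure D3:**
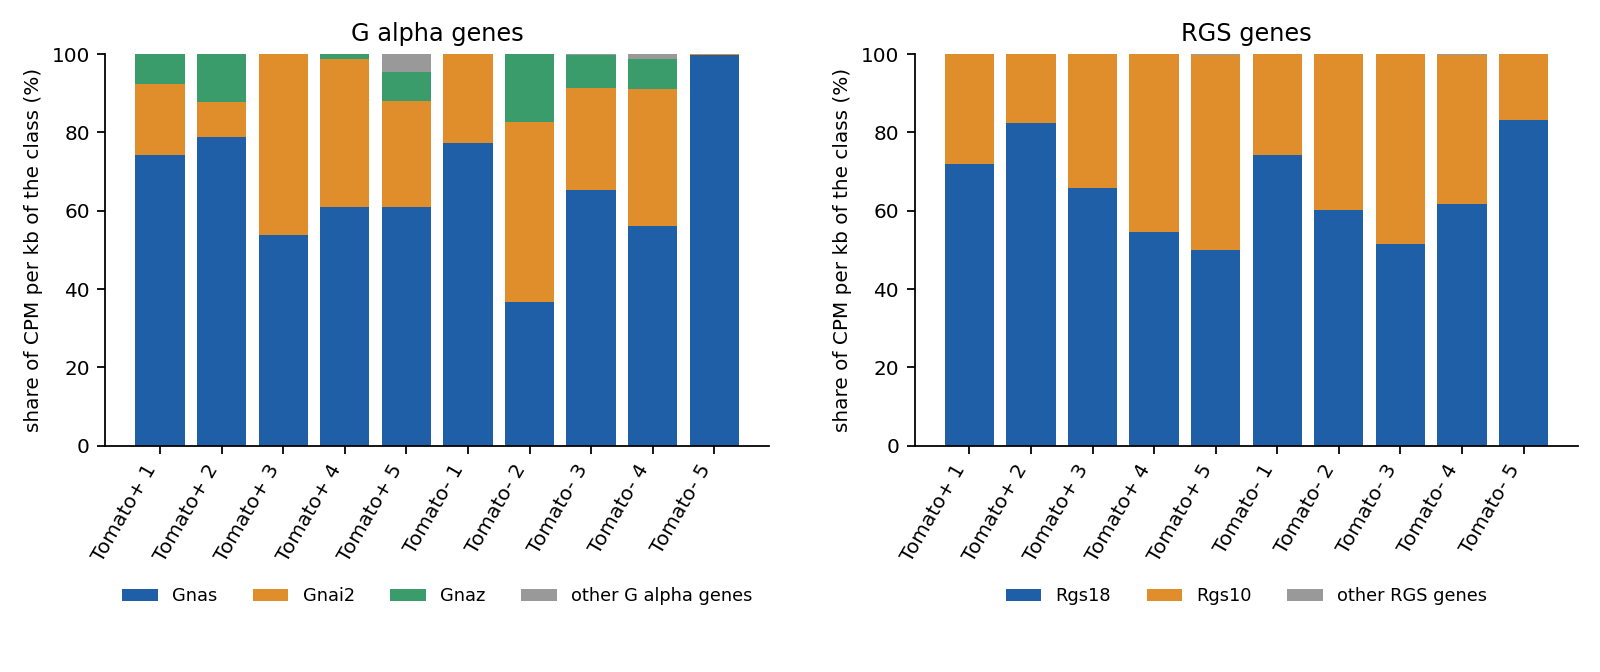
Share of each gene in the summed CPM per kb of exon of its class, in percent, for alpha subunit genes (left) and RGS genes (right), with 1 bar per library. Gnas runs from 36.8 to 99.8% and Gnai2 from 0.142 to 46.1% of the alpha class, and Rgs18 and Rgs10 fill nearly all of the RGS class in every library.

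The other classes were narrower still. Of 5 beta genes, Gnb2 was found beside Gnb1, with 223 counts in Tomato+ replicate 4, 1087 in Tomato- replicate 3 and 20 in Tomato- replicate 4. Of 12 gamma genes, Gng12 was found beside the 2 described, in 4 libraries at 25.4 to 197.5 CPM. Of 20 RGS rows 7 had any count, and Rgs18 took 50.0 to 83.3% and Rgs10 16.7 to 49.7% of the class per kb. Rgs18 exceeded Rgs10 in 10 of 10 libraries on that scale but in 4 of 10 with coding transcript length, so which of them is higher depends on the length chosen. Rgs12 had 177 to 931 counts in 3 libraries, Rgs1 had 186 counts in 1 library, and Rgs9, Rgs16 and Rgs22 had at most 5 counts in any library.

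Between the fractions, none of the 8 tested genes passed in edgeR, and none of the 10 passed in limma voom or DESeq2 where they were tested. The share of genes called at an edgeR adjusted p under 0.05 was 0% of the 1016 tested, and at an unadjusted p under 0.05 it was 0.886% (9 genes), to which these genes added Gnas. For none of the 8 did the CPM ranges of the fractions separate, against 0.591% of the 1016 genes (6 genes). Log2 fold changes were positive for 4 (Gnas, Gnai2, Gng11, Rgs18) and negative for 4 (Gnaz, Gnb1, Gng5, Rgs10), with a median of -0.04 beside 0.21 for all tested genes. The fold changes are scaled by edgeR's trimmed mean of M-values (TMM), which lies 0.24 above scaling by total counts for this contrast. Relative to the median tested gene, Gnas was 0.29, Gnai2 0.14 and Gng11 0.07 higher, and Rgs18 was -0.15, Rgs10 -0.35, Gnaz -0.40, Gng5 -0.41 and Gnb1 -0.74 on the log2 scale. In a bulk library, fewer platelets carrying a transcript and less of it per platelet cannot be told apart.

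**Figure D4:**
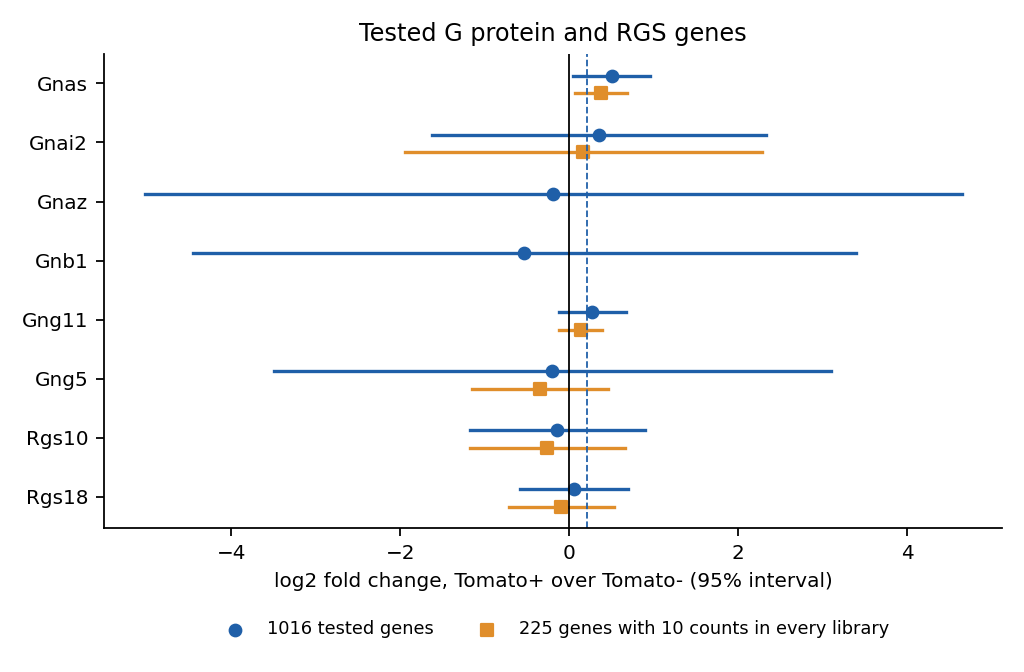
Log2 fold change of Tomato+ over Tomato- for the 8 tested genes, with 95% intervals, from edgeR on 1016 genes (blue circles) and on the 225 that reach 10 counts throughout (orange squares, where the gene is among them). The dashed line is the median of the 1016 genes, 0.21. Intervals are narrow for Gnas and Gng11. They span many-fold for Gnaz, Gnb1, Gnai2 (in both fits) and, in the first fit, Gng5.

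Libraries differed in how many of the 10 genes they showed, with 6 to 10 of them at 10 counts or more. The 2 libraries with 6 were Tomato- replicate 1 (902 detected genes) and Tomato+ replicate 3 (1118), and the 2 with all 10 were Tomato- replicate 4 (2430) and Tomato+ replicate 5 (2450). However, Tomato- replicates 5 (807 detected genes) and 2 (978) showed 7 and 8 of the 10 genes. The 2 smallest totals were those of Tomato- replicate 5 (5411417 counts, 7 genes) and Tomato+ replicate 3 (6505769, 6 genes), while the largest, Tomato+ replicate 4 (16179973), had 8. What makes a gene drop out of a library was not tested. Tomato- replicate 2 had the highest level of any library for 4 of the 10 genes (Gnai2, Gnaz, Gnb1 and Rgs10) and the lowest for Gng11, and Tomato- replicate 5 had the lowest for Gnas, Gnai2 and Rgs10.

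**Figure D5:**
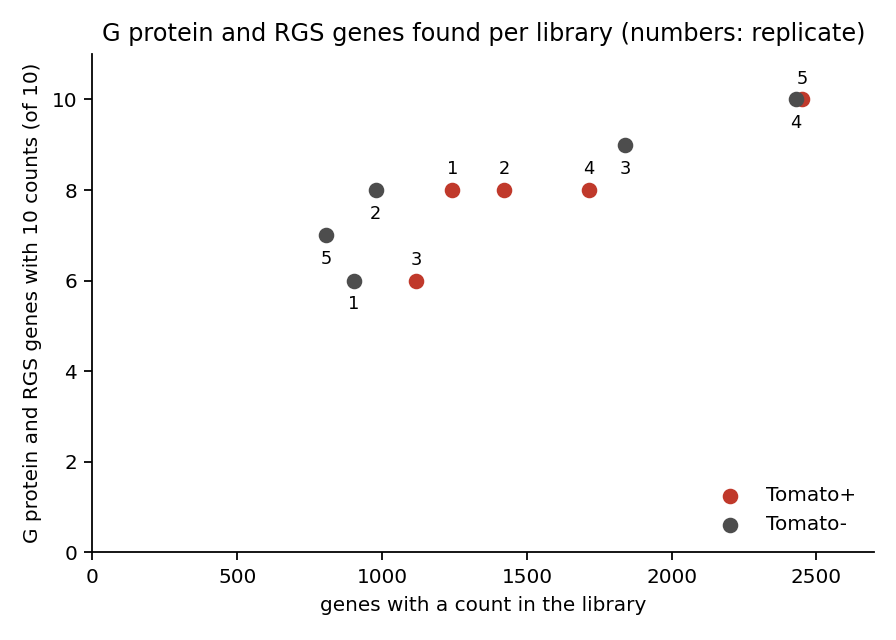
Number of the 10 G protein and RGS genes with at least 10 counts against the number of genes with any count, 1 point per library (Tomato+ red, Tomato- grey, numbers give the replicate). The 2 libraries with 10 of 10 genes are those with the most detected genes, 2430 and 2450, and the 2 with 6 have 902 and 1118. The order is not strict, since Tomato- replicates 5 and 2, with 807 and 978 detected genes, show 7 and 8.

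Receptors upstream of these G proteins were present in part. Of 20 listed receptors of the G protein coupled class, 8 had counts, 3 were tested and none passed, with 2 positive estimates and 1 negative (median log2 fold change 1.46 beside 0.21 for all tested genes). P2ry12, the ADP receptor that couples to Gi, averaged 2225 ± 545 CPM among Tomato+ libraries and 3460 ± 1255 CPM among Tomato- libraries (log2 fold change -0.36, SE 0.31). P2ry1, the ADP receptor that couples to Gq, was counted in 4 libraries of Tomato+ and in 1 of Tomato-, with means of 186.6 ± 139.7 and 30.2 ± 67.5 CPM (log2 fold change 2.56, SE 2.89). F2rl2, the thrombin receptor PAR3, had 721.2 ± 774.1 and 295.7 ± 401.4 CPM in 4 and 3 libraries. For each the edgeR adjusted p was 0.9996 (n = 5 per group). The thrombin receptor gene F2rl3 and the thromboxane receptor gene Tbxa2r were among the 12 listed receptors without any count.

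Effectors downstream were measured for 36 listed genes, of which 20 had counts and 13 were tested. None passed, with 4 positive estimates and 9 negative (median log2 fold change -0.25 beside 0.21 for all tested genes). Rap1b, the small GTPase that switches on integrins, averaged 2947 ± 708 CPM for Tomato+ and 3837 ± 1011 CPM for Tomato-. Rasgrp2, its calcium-dependent exchange factor, had 1281 ± 247 and 1847 ± 491 CPM. The 2 with the smallest p were Prkaca, the catalytic subunit of the kinase that cyclic AMP activates (60.4 ± 76.9 and 526.0 ± 613.9 CPM, log2 fold change -2.79, SE 2.22), and Prkca, a calcium-dependent protein kinase C (86.0 ± 122.8 and 11.2 ± 25.0 CPM, log2 fold change 2.97, SE 2.94). Their SDs exceed their means in both fractions, and their edgeR adjusted p was 0.9996 (n = 5 per group).

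Of 17 listed receptor kinases, arrestins and G protein chaperones, 14 had a row, 8 had counts and 3 were tested, all 3 with a positive estimate and none passing (median log2 fold change 0.24 beside 0.21 for all tested genes). Arrb2 (beta-arrestin 2) averaged 105.2 ± 91.6 CPM for Tomato+ and 118.9 ± 204.5 CPM for Tomato-. Arrb1 (beta-arrestin 1) had counts in 5 libraries, with 92.5 ± 165.5 and 10.3 ± 22.1 CPM, and Grk5 in 5, with 39.7 ± 81.3 and 40.5 ± 61.1 CPM. Grk6 was counted in 3 libraries of Tomato+ and 1 of Tomato-, at 110.5 ± 145.3 and 0.114 ± 0.254 CPM, and did not pass the expression filter.

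For the 6 genes with 10 counts in every library, the gene with the most similar pattern over the 10 libraries was sought among 216 others, with predicted gene models left out. Likeness was the root mean square distance of log2(CPM + 1) after centring each gene on its mean. Gng11 lay nearest to Ctla2a (distance 0.115), Gnas to Tmsb4x (0.187), Gng5 to Pf4 (0.240), Rgs18 to Tagln2 (0.338), Rgs10 to Ptpn18 (0.360) and Gnai2 to Gclm (1.31). The distance for Gng11 was about as large as its own spread (0.118), which is its distance from a flat line. Gng11 and Ctla2a had the 2 lowest coefficients of variation, so a small distance does not tell a shared pattern from 2 steady genes. For Gnas (own spread 0.244), Gng5 (0.329) and Rgs18 (0.430) the nearest gene was likewise only somewhat closer than a flat line. Rgs10 (0.681) and Gnai2 (2.64) had a nearest gene well inside their own spread. The spread of Gnai2 rests largely on Tomato- replicate 5, at 2.96 CPM (16 counts), against 443.4 to 2982 CPM in the other libraries. Each distance is the smallest of 216, and whether any pair shares a pattern was not tested.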

How the data were processed

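Raw read counts per gene symbol for 10 libraries were deposited by the authors in 1 table with no normalization. Trimmomatic, FastQC, STAR and featureCounts with the mouse build mm10 are named, without versions, per the submitters' processing notes. The sources used here name neither annotation nor strand setting, so reads of overlapping genes cannot be told apart. Of the overlapping rows in the table, E030024N20Rik at Gnaq had 25 counts in all and Gm11696 at Gna13 had 380, in Tomato+ replicate 4 alone. The molecules carried no identifiers in these counts, so limits from counts cover counting error only.

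CPM used the sum of all rows. The whole table was tested in R 4.3.3. edgeR 4.0.16 was run with TMM factors and its default expression filter (minimum count 10, minimum total 15), a robust quasi-likelihood fit and its F test with group as sole term, and Benjamini-Hochberg adjustment over 1016 genes at 0.05. A positive log2 fold change means a higher level in Tomato+, and the SE is its size divided by the square root of F. Alternatives used limma 3.58.1 (voom) and DESeq2 1.42.0. The scripts were tested on simulated counts. Coordinates and lengths (union of exons) came from GENCODE M21 on GRCm38, the assembly of mm10, where all 10 symbols matched. The 10 genes and all lists were chosen with earlier results of these data known. From each list, the text names the 2 genes of highest mean CPM and the 2 with the smallest p, where any library had counts, besides the 10 genes. Other family genes with counts were named after their values were seen.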

Additional observations from a re-analysis of the deposited data

Results flagged for a closer look

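Within a group of 5 libraries, 5 values stood apart from the other 4 by more than 0.71 of the group's range, Dixon's 95% limit, in 20 groups examined. A chance rate of about 1 group in 20 holds for normally distributed values only. The Gnaq and Gna13 groups hold mostly 0 counts, where a single library with many counts is marked in any case. The number of marked groups is therefore not set against chance. Gnaq reached 129.4 CPM in Tomato+ replicate 5, with 0 in the other 4, and 19.4 CPM in Tomato- replicate 4, with at most 0.123 CPM in the others. Gna13 reached 57.5 CPM in Tomato+ replicate 5, with 0 in the other 4, and 14.95 CPM in Tomato- replicate 3, with at most 0.944 CPM in the others. Gnb1 was the 1 case of a low value, 0.461 CPM (3 counts) in Tomato+ replicate 3, where the next lowest library had 203.3 CPM.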

How the results depend on the processing

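In 19 other settings none of the tested genes of the set passed, and the smallest adjusted p was 0.422 (edgeR with no filter on low counts). Over all genes, edgeR called 0 in each edgeR setting, DESeq2 called 216 (180 with no count in 1 of the fractions), limma voom 1 (Ctla2a) and limma voom with the replicate block 2 (Rn45s and Fth1). Gnas, Gng11 and Gng5 kept the direction of their estimate in all 19 settings (log2 fold change 0.21 to 0.61, 0.02 to 0.36 and -0.41 to -0.07). The median of all tested genes itself ran from -0.03 to 0.95. Gnas lay below that median with limma voom (0.44 against 0.95) and the replicate block in edgeR (0.54 against 0.56). Gng11 lay below it in both, with the replicate block in limma voom (0.18 against 0.37) and without Tomato- replicate 2 (0.17 against 0.18). Otherwise both lay above it, and Gng5 lay below it throughout. The direction of Rgs18 turned with scaling by total counts (-0.18), relative log expression factors (-0.10), DESeq2 (-0.090), limma voom (-0.016), 10 counts in every library (-0.10) and without the 3 libraries under 1000 detected genes (-0.081), and ran from -0.23 to 0.19 with 1 library left out. Gnaz turned with limma voom (2.18) and with the replicate block in edgeR (0.25) and limma voom (0.10), and ran from -0.80 to 0.49 with 1 library left out. Gnb1 turned with limma voom (0.13) and without the 3 libraries under 1000 detected genes (0.057), and ran from -0.98 to -0.092 with 1 library left out. Rgs10 turned with the replicate block in edgeR (0.023), and ran from -0.37 to -0.012 with 1 library left out. Gnai2 ran from -0.056 to 0.79 with 1 library left out, with the lowest value without Tomato+ replicate 3. The cause of these turns was not tested. The labels do not say that equal replicate numbers pair libraries, and deviations of same-numbered libraries correlated between -0.107 and 0.119, with 2 of 5 Tomato+ libraries closest to their own number. Gnaq, Gna13 and Gnaz were at 0 in 7, 7 and 3 libraries. By library, a count of 0 would allow up to 0.185 to 0.554 CPM, the level of 3 counts, which covers counting error only.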
